A study of Mus musculus with 6 samples.

Results

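Il17rd and 9 further genes that brake the signalling of receptor tyrosine kinases, or that are induced with those brakes, were followed in a mouse breast carcinoma line: Spry1, Spry2, Spry4, Spred1, Dusp4, Dusp6, Etv4, Etv5 and Phlda1. They were taken from the count table by gene symbol, and make up 10 of the 24421 genes listed. All 10 passed the filter on low counts, which kept 13084 genes. The set was chosen by a measured value: Il17rd had one of the lowest log2 fold changes of these same libraries between doxycycline and untreated cells, and the others were added for their known place in the same feedback, with that contrast already known. The members' differences between the groups are therefore given as a description, and no p-value is printed for a member. Calls of members are counted beside the share or number of all genes called, and the members called are named.

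Receptor tyrosine kinases, such as the receptors for fibroblast and epidermal growth factors, activate RAS and through it the kinases RAF, MEK and ERK. Active ERK switches on the genes of its own inhibitors, so that the route limits itself. The messenger RNAs of these inhibitors, and of the ETS factors Etv4 and Etv5, are widely read as a measure of ERK output, and in breast carcinoma cells the route controls growth, survival and migration.

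The 4T1-tetL1(GLucAI) cells are a stably transfected population of 4T1, a line from a mammary carcinoma of a mouse of strain BALB/cfC3H. All 6 libraries came from cells with the same cassette. In it, doxycycline drives a LINE-1 (L1) retrotransposon linked to a Gaussia luciferase reporter and, from the same bidirectional promoter, firefly luciferase. The Tet-On 3G transactivator is under an EF1α promoter. Total RNA was sequenced from 3 untreated cultures, called vehicle in the treatment tag, and from 3 cultures given 400 ng/mL doxycycline for 48 h, and the comparison addresses what L1 induction does to transcription. Neither doxycycline-treated cells without the cassette nor cells with luciferase induced alone are among these libraries. The drug, firefly luciferase and L1 induction therefore cannot be told apart. The cassette transcript was not analysed here, so the group labels were not checked against it.

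The libraries held 31653464 to 43631312 counts, at which 3 counts correspond to 0.0683 to 0.0944 CPM, a gene's counts relative to the scaled total of its library. All 6 epithelial markers were present, with summed levels of 1810 to 1890 CPM in untreated and 1750 to 1980 CPM in doxycycline libraries. Of these, Krt19 alone was called, and was lower with doxycycline (63.5 ± 2.15 against 51.4 ± 4.22 CPM, adjusted p = 0.00782 by edgeR), and its part in the results was not tested. Adgre1, the macrophage marker, was at 0, the leukocyte markers Ptprc and Cd3e were near 0, Cd68 was at 9.90 ± 1.04 and 9.53 ± 1.05 CPM, and the 4 endothelial markers summed to 0.318 to 0.81 CPM. In bulk RNA, fewer cells of a type and less RNA per cell cannot be told apart.

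Il17rd encodes Sef, a membrane protein of the IL-17 receptor family that inhibits signalling from fibroblast growth factor receptors to ERK. The gene (gene ID 171463) lies on the plus strand of GRCm38 at chr14:27038964-27107286. It gave 140, 134 and 144 counts in the untreated libraries and 54, 75 and 61 counts in the libraries labelled doxycycline. These counts corresponded to 3.19, 4.02 and 3.85 CPM without and 1.70, 1.84 and 1.59 CPM with doxycycline. Each doxycycline library lay below each untreated library. The mean went from 3.68 ± 0.437 to 1.71 ± 0.122 CPM (SD, n = 3). The log2 fold change fitted by edgeR was -1.10 with an SE of 0.193 and a 95% interval of -1.50 to -0.70, by which the level fell by 53.4%. This placed Il17rd at position 46 from the lowest of 13084 log2 fold changes. Counting error alone was 8.3% of the largest Il17rd count, in an untreated library, against a coefficient of variation of 12% among the untreated libraries. It was 14% of the smallest count, in a doxycycline library, against 7.1% among the doxycycline libraries.

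**Figure D1:**
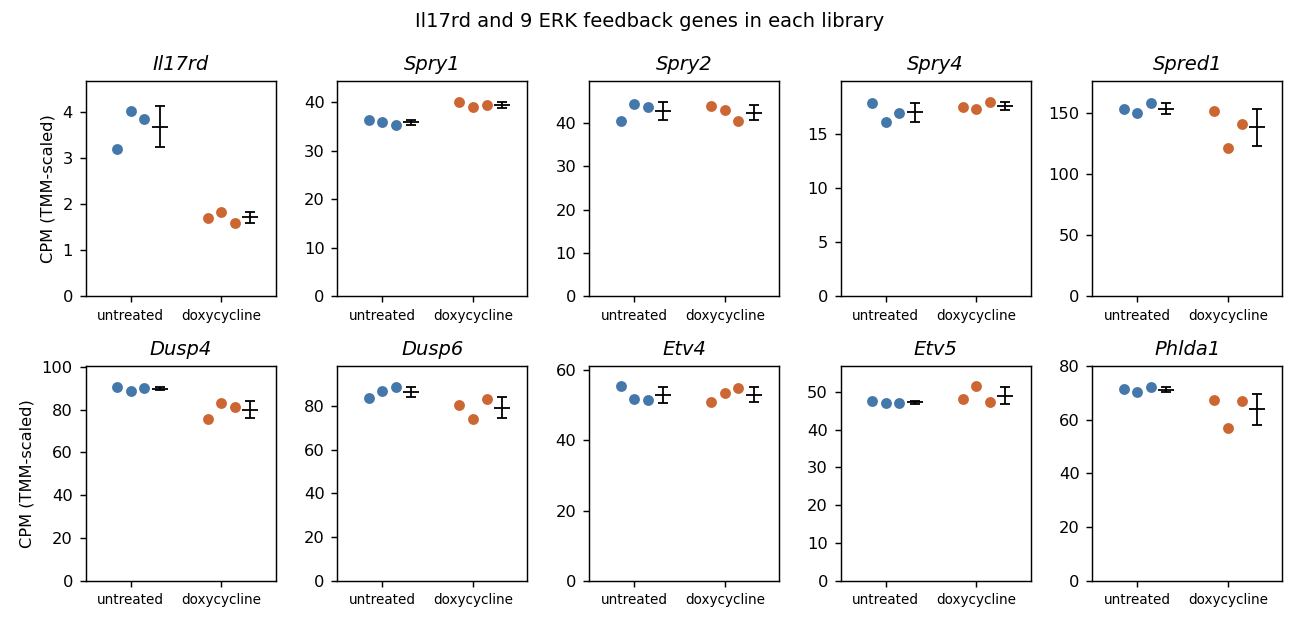
CPM of each of the 10 genes in the 3 untreated and the 3 doxycycline libraries, 1 panel per gene, with a point for each library and a bar for the group mean. Il17rd is the member whose groups lie farthest apart in proportion, from 3.68 to 1.71 CPM on average.

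The bases just before a gene's start are shown for Il17rd, for the ERK phosphatase gene Dusp6 and for Spry1, as examples of a member lower by a wide margin, one slightly lower and one slightly higher with doxycycline. The sequences are from RefSeq on GRCm38.p6, read 5′ to 3′ on the plus strand, and stop at the last base before the annotated gene: chr14:27038751-27038963 for Il17rd, chr10:99262981-99263230 for Dusp6 and chr3:37639697-37639946 for Spry1. Capitals mark GGAA, the core bound by ETS factors, or its reverse complement TTCC. This core was chosen for display after the windows had been seen.
Il17rd: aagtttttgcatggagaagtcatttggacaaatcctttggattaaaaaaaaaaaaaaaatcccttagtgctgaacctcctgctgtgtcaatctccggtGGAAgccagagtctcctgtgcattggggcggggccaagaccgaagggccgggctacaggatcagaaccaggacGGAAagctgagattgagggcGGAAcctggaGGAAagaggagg
Dusp6: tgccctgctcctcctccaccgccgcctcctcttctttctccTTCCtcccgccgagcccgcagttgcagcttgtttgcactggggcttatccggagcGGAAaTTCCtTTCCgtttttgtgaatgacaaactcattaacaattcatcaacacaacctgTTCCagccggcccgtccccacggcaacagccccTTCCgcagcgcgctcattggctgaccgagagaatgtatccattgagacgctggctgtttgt
Spry1: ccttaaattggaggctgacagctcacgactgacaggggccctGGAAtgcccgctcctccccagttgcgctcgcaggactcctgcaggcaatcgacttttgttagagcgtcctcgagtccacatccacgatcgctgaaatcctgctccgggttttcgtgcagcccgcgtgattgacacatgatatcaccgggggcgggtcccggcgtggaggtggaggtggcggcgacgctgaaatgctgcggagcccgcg
In the 250 bases before the start used for the RefSeq windows, Il17rd had 4 such cores, Dusp6 had 6 and Spry1 had 1. For Il17rd these bases reach 37 bases into the annotated gene. Among the other members with such a window, Spred1 had 4, Spry2 had 3, and Etv5 had 0 in its window 1 and 4 in its window 2. Among all 32851 windows of this length the median was 3, at least 1 was found in 93.4%, at least 4 in 33.4% and at least 6 in 8.69%. Whether the number of cores goes with the direction of the difference was not tested. In the same 250 bases Il17rd had 10 CpG dinucleotides, Dusp6 had 16 and Spry1 had 23, against a median of 6.

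RefSeq windows of 300 bases around the start were matched by symbol for 6 of the 10 members (Il17rd, Spry1, Spry2, Spred1, Dusp6 and Etv5, the last with 2 windows) and not for Spry4, Dusp4, Etv4 and Phlda1. The 7 windows were searched on both strands for the longer ETS core CCGGAAG, for the octamers TGAATGAA and TGAATGGA bound by the repressor CIC, for the AP-1 site TGACTCA and for the CRE TGACGTCA. None of them held an exact match to any of these letters. Other forms of these sites were not searched, so it cannot be read from this that the windows lack them. Of all 32851 windows, 8.86% held the ETS core, 1.3% and 1.21% the CIC octamers in that order, 5.2% the AP-1 site and 1.79% the CRE.

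Sprouty proteins are induced by growth factors and block the step from the receptor to RAS and RAF. Spry1 (gene ID 24063, chr3:37639947-37644599, plus strand) stood at 36.3, 35.9 and 35.4 CPM in the untreated libraries and at 40.1, 39.0 and 39.4 CPM with doxycycline. All 3 doxycycline libraries lay above all 3 untreated ones, with a log2 fold change of 0.14 (SE 0.0615), in the direction opposite to that of Il17rd. The annotation places the unclassified transcript Gm42922 on the opposite strand of Spry1, and as the strand setting of the counting is not stated, reads of the pair cannot be told apart.

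Spry2 (gene ID 24064, chr14:105891947-105896819, minus strand) had 40.6, 44.5 and 43.6 CPM without and 43.8, 43.0 and 40.4 CPM with doxycycline. Its groups overlapped, and the log2 fold change was -0.02 with a 95% interval of -0.15 to 0.12. Spry4 (gene ID 24066) had 17.9, 16.1 and 17.0 CPM without and 17.5, 17.3 and 18.0 CPM with doxycycline. Its groups also overlapped, with a log2 fold change of 0.05 and an interval of -0.13 to 0.23, and the annotation has the small RNAs Gm27369 and Gm27804 on its opposite strand. Spry3, the remaining Sprouty gene, had 0 counts in all 6 libraries.

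Spred1, a relative of the Sprouty genes, encodes a protein that brings neurofibromin to the membrane to inactivate RAS. The gene (gene ID 114715, chr2:117121071-117182279, plus strand) was at 153, 150 and 158 CPM in untreated libraries and at 152, 122 and 141 CPM in doxycycline libraries. The groups overlapped through doxycycline replicate 1, whereas doxycycline replicate 2 was the lowest of the 6. The log2 fold change was -0.15 (SE 0.0615), and -0.07 without doxycycline replicate 2. Its relative Spred2 had 98.9, 89.9 and 96.3 CPM without and 84.5, 91.8 and 90.8 CPM with doxycycline, and Spred3 went from 24.3 ± 1.08 to 25.6 ± 1.42 CPM. Neither passed the test, with log2 fold changes of -0.09 and 0.08 and adjusted p-values by edgeR of 0.41 and 0.662.

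Dusp4 and Dusp6 encode phosphatases that remove the activating phosphates from ERK, Dusp4 in the nucleus and Dusp6 in the cytoplasm. Dusp4 (gene ID 319520, chr8:34807610-34819894, plus strand) read 90.5, 88.9 and 90.0 CPM without and 75.8, 83.3 and 81.1 CPM with doxycycline. The groups did not overlap, with the doxycycline libraries lower by a log2 fold change of -0.17 (SE 0.0522, 95% interval -0.27 to -0.06). Dusp6 (gene ID 67603, chr10:99263231-99267489, plus strand) read 83.7, 86.6 and 88.4 CPM without and 80.2, 74.1 and 83.3 CPM with doxycycline. Here too the doxycycline libraries were all lower, but the highest of them and the lowest untreated library were close, and the log2 fold change of -0.12 (SE 0.055) became -0.08 without doxycycline replicate 2.

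Etv4 and Etv5 are ETS transcription factors of the PEA3 group, and their transcripts follow ERK activity in many cells. Etv4 (gene ID 18612, chr11:101769747-101785310, minus strand) had 55.4, 51.6 and 51.5 CPM in untreated and 50.8, 53.3 and 54.8 CPM in doxycycline libraries. Etv5 (gene ID 104156, chr16:22381313-22439570, minus strand) had 47.6, 46.9 and 47.2 CPM in untreated and 48.1, 51.5 and 47.3 CPM in doxycycline libraries. Neither pair of groups was separated by more than the spread between libraries: the Etv4 groups and the Etv5 groups overlapped. The 95% intervals of their log2 fold changes ran from -0.12 to 0.13 for Etv4 and from -0.07 to 0.18 for Etv5. Etv1, the third PEA3 factor, went from 72.1 ± 4.97 to 67.1 ± 2.60 CPM and did not pass the test (log2 fold change -0.10, edgeR adjusted p = 0.412).

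Phlda1 encodes a pleckstrin homology domain protein whose transcript is induced by ERK. The gene (gene ID 21664, chr10:111506286-111508649, plus strand) was at 71.2, 70.4 and 72.0 CPM without and at 67.3, 57.1 and 67.1 CPM with doxycycline. The untreated libraries lay within a narrow range above all doxycycline libraries, of which replicate 2 was the lowest. The log2 fold change was -0.16 (SE 0.0625), and -0.08 without doxycycline replicate 2. The annotation has the long non-coding RNA Gm28592 on the opposite strand.

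Across the 10 members, 4 log2 fold changes were above 0 and 6 below, with a median of -0.07 against 0.002 for all 13084 genes tested. At an adjusted p under 0.05 (edgeR's quasi-likelihood test, Benjamini-Hochberg), 1 member counted as lower, Il17rd, on whose difference the set was chosen, and 0 as higher. Of all tested genes, 2.16% were called lower, 0.925% higher and 3.09% in either direction. At an unadjusted p under 0.05 there were 6 members, against 16.2% of all tested genes. The groups did not overlap for 5 members, against 21.3% of all tested genes, and doxycycline was lower in 4 of these (Il17rd, Dusp4, Dusp6 and Phlda1), against 11.1%. Without Il17rd the median of the other 9 was -0.02. As the contrast was known when the members were chosen, nothing is read from these counts.

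**Figure D2:**
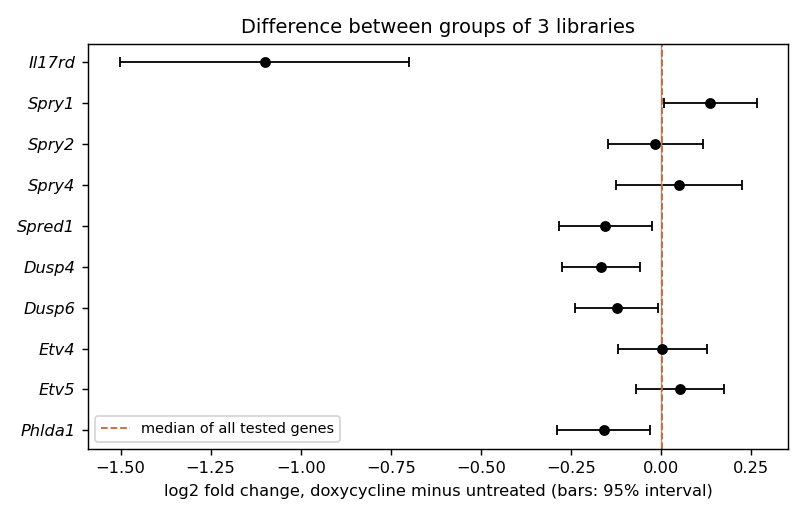
Log2 fold change of each member, doxycycline minus untreated, as points with 95% intervals from edgeR, on an axis that is linear in log2 units. Il17rd lies at -1.10, and the other 9 lie between -0.17 and 0.14.

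The members differed widely in level. Per kilobase of exon, the untreated means were 32.8 CPM for Dusp4, 32.3 for Phlda1, 27.5 for Dusp6, 22.6 for Spred1, 20.6 for Spry2, 17.0 for Etv4, 12.4 for Spry1, 11.5 for Etv5, 3.57 for Spry4 and 0.335 for Il17rd. Dusp4 and Phlda1 overlapped between libraries, while every other pair of neighbours in this order was separated in all 3 untreated libraries. Dusp4 stood 97.9-fold above Il17rd. On this scale Il17rd exceeded 10.2% of 12605 tested genes with a known length, and Dusp4 89.3%. The order of the means was the same with doxycycline, although in single doxycycline libraries Phlda1 lay above Dusp4 (replicates 1 and 3) and Spry2 above Spred1 (replicate 2). With the longest transcript as the length, Phlda1 (36.5) came before Dusp4 and Etv4 (22.1) before Spry2, and Il17rd stayed last at 0.445 CPM per kilobase.

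**Figure D3:**
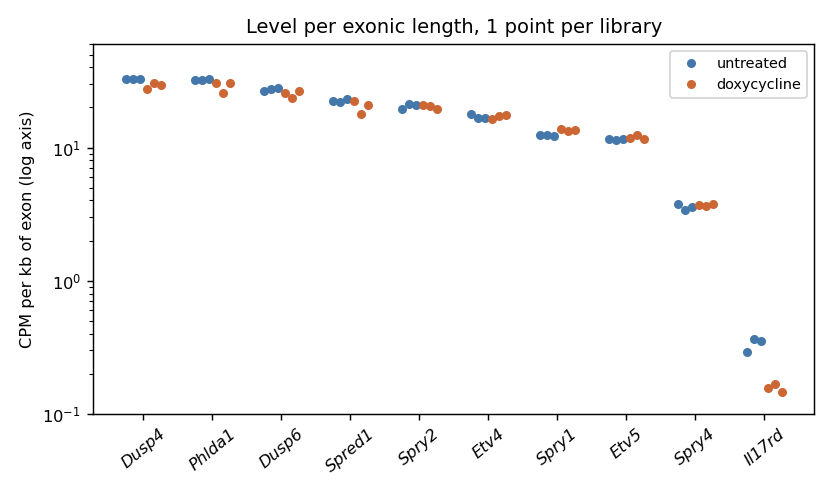
CPM per kilobase of exon for each member, on a log axis, with a point for each of the 6 libraries and members in order of their untreated mean. The range runs from 32.8 for Dusp4 to 0.335 for Il17rd in untreated cells.

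Further genes, mostly of the route, were taken from 7 lists of 110 genes, of which 91 were tested. The list of the IL-17 receptor family and its ligands lies outside the route and is counted in these totals. Of these 91, 47 had a log2 fold change above 0 and 44 below, with a median of 0.01, and edgeR called 3 higher and 1 lower, 4.4% in all against the 3.09% of all genes. Unadjusted p-values under 0.05 were found for 17 of them, or 18.7%, against 16.2% of all genes.

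Among 15 tested ligands, which include epidermal, fibroblast and platelet-derived growth factors, none was called, and the median was -0.08. Of 11 tested receptors, Pdgfra, a receptor for platelet-derived growth factors, was called lower. It had 37.6, 37.5 and 35.2 CPM without and 27.3, 28.6 and 27.6 CPM with doxycycline, and its groups were far apart. The difference was -0.40 ± 0.0663 on the log2 scale (SE), with an adjusted p of 0.000952 by edgeR. Pdgfra is also a fibroblast marker: the 6 fibroblast markers summed to 35.7 to 38.7 CPM without and 28 to 29.6 CPM with doxycycline, nearly all of it Pdgfra, while Thy1 and Lum were at 0 and Col1a1, Col1a2 and Dcn near 0. Fgfr2, a receptor whose signal Sef is known to inhibit, stood at 95.6 ± 3.09 and 92.0 ± 9.04 CPM, with overlapping groups (log2 fold change -0.06, edgeR adjusted p = 0.709).

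All 20 genes of the RAS to ERK cascade were tested and none was called in the main test, with a median of -0.01.

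Of 18 tested further inhibitors, 2 were called, both higher. Dusp5, a nuclear ERK phosphatase, rose from 22.3, 22.0 and 26.4 CPM to 28.9, 28.2 and 30.0 CPM (0.30 ± 0.0797 on the log2 scale, adjusted p = 0.0392 by edgeR). Errfi1, an inhibitor of the epidermal growth factor receptor, rose from 338, 336 and 332 CPM to 383, 371 and 399 CPM (0.20 ± 0.044 on the log2 scale, adjusted p = 0.0127 by edgeR). The groups of both genes were separated, so these 2 inhibitors and Il17rd moved in opposite directions. Dusp7, which like Dusp6 encodes a cytoplasmic ERK phosphatase, was at 93.2 ± 1.54 and 95.7 ± 5.39 CPM (edgeR adjusted p = 0.778).

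None of the 13 transcription factors and repressors was called in the main test, with a median of 0.03. Of 9 other ERK-induced genes, the receptor gene Epha2 was called higher, from 224, 223 and 212 CPM to 231, 273 and 259 CPM (0.21 ± 0.054 on the log2 scale, adjusted p = 0.0323 by edgeR). Its groups were separated, although doxycycline replicate 1 was close to the untreated range. A further 5 genes of the 7 lists missed the threshold with an adjusted p under 0.1 by edgeR, and were named after their values were seen. Of these, 4 had higher means with doxycycline: Plaur, the urokinase receptor gene (90.6 ± 3.12 against 102 ± 4.14 CPM, adjusted p = 0.0721), Fosl1, an AP-1 subunit gene (22.0 ± 1.18 against 26.3 ± 1.54 CPM, adjusted p = 0.0772), Srf, which encodes serum response factor (51.3 ± 2.79 against 58.5 ± 1.22 CPM, adjusted p = 0.0889), and the phosphatase gene Dusp9 (51.1 ± 1.84 against 58.1 ± 2.59 CPM, adjusted p = 0.0957). Mapk3, which encodes ERK1, had the lower mean with doxycycline (57.9 ± 1.53 against 50.3 ± 3.92 CPM, adjusted p = 0.0889 by edgeR).

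The calls of Dusp5, Errfi1 and Epha2 were each lost on leaving out any of several single libraries: untreated replicate 1 or 2 or doxycycline replicate 3 for all 3 genes, and also untreated replicate 3 for Errfi1 and Epha2. In those fits the log2 fold changes were 0.26 to 0.28 for Dusp5, 0.17 to 0.20 for Errfi1 and 0.18 to 0.23 for Epha2. The call of Pdgfra was kept in 16 of 16 alternatives.

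Of the IL-17 receptor family and its ligands, 5 of 11 genes were tested and none was called. Il17ra, the shared receptor chain of this family, stood at 33.3, 33.2 and 29.1 CPM without and 34.1, 35.9 and 32.6 CPM with doxycycline. Its groups overlapped (log2 fold change 0.10, edgeR adjusted p = 0.512). Whether it differed from Il17rd in its response was not tested.

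**Figure D4:**
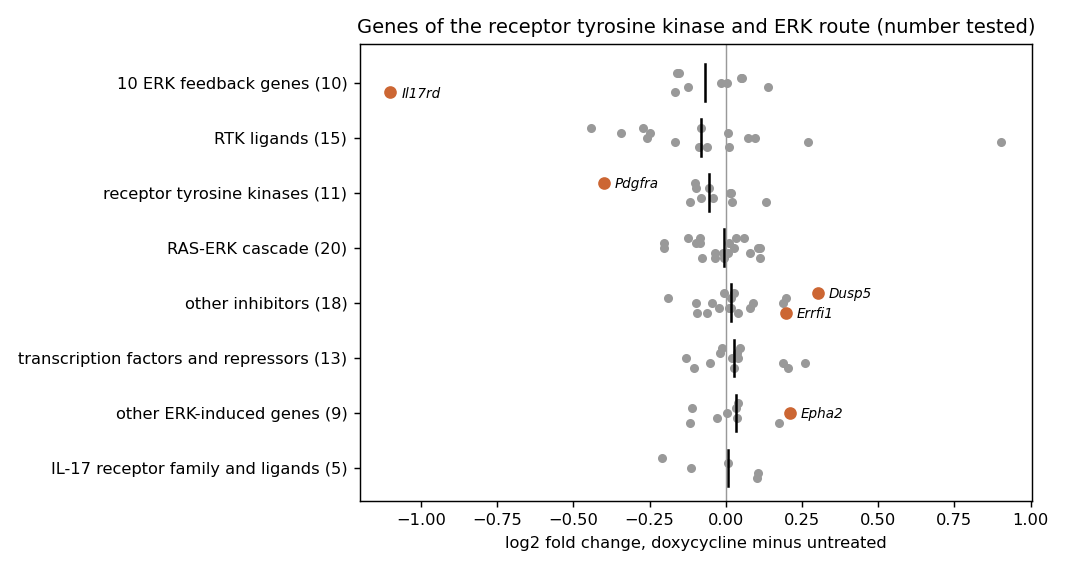
Log2 fold changes of the tested genes of each list, doxycycline minus untreated, with the 10 members in the top row, a black bar for each list's median and called genes in orange with their names. Medians of the 7 lists lie between -0.08 and 0.03, and the called genes other than Il17rd lie between -0.40 and 0.30. Il17rd, in the top row, was chosen by this difference.

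The genes whose profile was closest to that of Il17rd were found from log2 CPM centred on each gene's mean over the 6 libraries, among 11656 tested genes with a mean of at least 1 CPM. Bnip3, a mitochondrial BH3 protein gene, was nearest with a root mean square difference of 0.136, followed by Nos2, the inducible nitric oxide synthase, at 0.184, Ltf, which encodes lactotransferrin, at 0.189, Lcn2, which encodes lipocalin 2, at 0.192, and the guanylate-binding protein gene Gbp4 at 0.195. Nos2 had 21.5, 27.1 and 28.7 CPM without and 10.8, 11.4 and 7.97 CPM with doxycycline, and Lcn2 100, 89.5 and 93.4 CPM without and 54.7, 54.8 and 48.1 CPM with doxycycline. Gbp4 belongs to a family of near-identical genes, so its counts are uncertain. Among the other members, Dusp4 came closest at rank 1130 (0.472) and Spry1 farthest at rank 9912. As the profile is dominated by the difference between the groups, this is a description of 6 libraries.

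**Figure D5:**
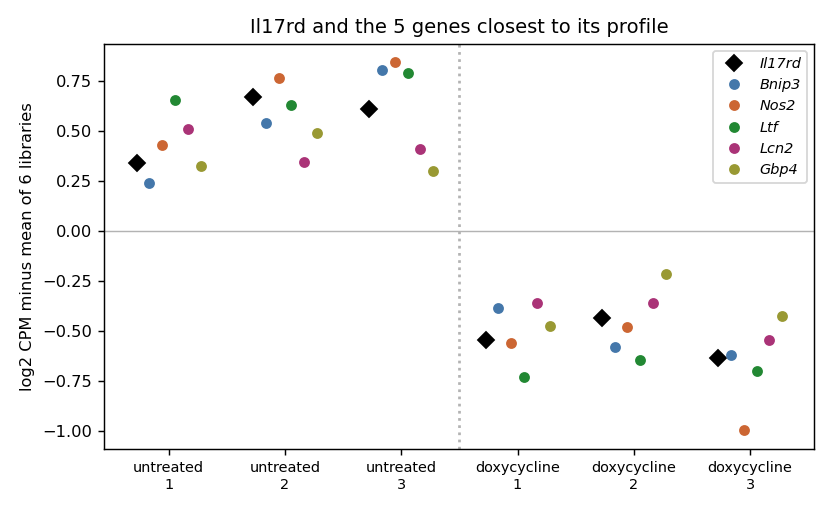
Log2 CPM minus each gene's mean over the 6 libraries, for Il17rd (diamonds) and the 5 genes closest to it (circles), by library. All 6 genes are above 0 in the 3 untreated libraries and below 0 in the 3 doxycycline libraries.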

How the data were processed

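Total RNA depleted of ribosomal RNA was sequenced from 6 cultures with a kit that keeps strand. The authors demultiplexed with bcl2fastq 2.20, aligned with STAR to GRCm38 and counted per gene with featureCounts (Subread 1.6.2), per the labels and the methods. They deposited raw counts, replicates apart. Strand setting and multi-mapping are not stated, so overlapping or near-identical genes can share reads.

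Groups came from the sample titles, and 0 columns stayed unmatched. The table had 24421 genes, 6760 without a count. No replicate pair agreed within sampling noise (chi-square per degree of freedom 6.39 to 23.4). The main test was edgeR 4.0.16 quasi-likelihood (R 4.3.3), robust, TMM scaling, filterByExpr, group as the only term, Benjamini-Hochberg over 13084 genes at 0.05. The study used DESeq2. CPM used TMM-scaled totals, and errors are SD over 3 libraries. Standard errors and 95% intervals are from edgeR. The script was tested on simulated data. Exon lengths, strands and overlapping transcripts came from GENCODE, gene positions and upstream windows from RefSeq (GRCm38).

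The members and lists were chosen with earlier results of these data known. Named were all members, called genes of each list (up to 3), close relatives, and the 5 genes most like Il17rd. Some genes of the lists are not reported here by name. Genes named beyond this rule were chosen after their values were seen. Alternatives were other scalings, filters, DESeq2 1.42.0, limma 3.58.1 voom, a replicate block and leaving out each library, and, chosen after seeing the data, a GC content and length correction and leaving out Rn45s. p-values measure the spread between cultures described as biological triplicates. The limit of 3 counts covers counting error only.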

Additional observations from a re-analysis of the deposited data

How the results depend on the processing

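Of 121 genes called higher and 283 called lower, 70% were lower, and 50.5% with the GC content and length correction, which covered 96.3% of tested genes. That correction gave 415 genes higher and 423 lower of 12605 tested. Among them were 2 members lower (Dusp4 joined Il17rd), 9 pathway genes higher, Fosl1 and Srf included, and 2 lower, Mapk3 and Pdgfra. Without a filter on low counts there were 210 genes higher, 439 lower and 3 pathway genes lower, Mapk3 among them. Fosl1 was then also called higher. DESeq2's Wald test gave 5 pathway genes higher, with Fosl1 and Plaur added. Leaving out 1 library gave 44 to 269 genes higher, 116 to 487 lower, 1 to 2 members lower, 0 to 6 pathway genes higher and 1 to 3 lower. The second member lower was Spred1 without doxycycline replicate 1, where 356 of 13266 tested genes were lower. It was Dusp4 without doxycycline replicate 2, where 487 of 13237 were lower. Of the fits that left out 1 library, these had the most genes lower. The log2 fold change of Il17rd, the value it was chosen by, ran from -1.20 to -1.03 over 16 alternatives, which is a description and no support, while the signs of Spry2 and Etv4 held in 13 and 10 of 16. Calls of Bnip3 (log2 fold change -1.05 without doxycycline replicate 2) and Gbp4 (-0.68 without untreated replicate 2, -0.71 without doxycycline replicate 3) were also lost. The cause was not tested.

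Same-numbered libraries did not deviate together (correlations -0.0399, -0.00449 and 0.0176). These values cannot tell whether same-numbered cultures were set up together. With the replicate block there were 118 genes higher and 300 lower, and Il17rd had a log2 fold change of -1.10. The low counts of Il17rd, 54 to 144 per library, limit its precision to an interval of 0.4 on either side, against 0.11 to 0.18 for the other members.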

Other observations

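Il17c, a ligand gene of the IL-17 family, did not pass the filter on low counts and was not tested. It was named after its values were seen, with 5, 8 and 3 counts in the untreated and 11, 10 and 15 counts in the doxycycline libraries, or 0.145 ± 0.0842 and 0.328 ± 0.0752 CPM (SD, n = 3).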
